A study of Mus musculus with 16 samples.

Results

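The bone morphogenetic protein (BMP) genes described here are 10 genes chosen by name: the ligands Bmp2, Bmp3, Bmp4, Bmp5 and Bmp7, the type I receptor Bmpr1a, the pathway inhibitor Smad6, and the target genes Id1, Id2 and Id3. A gene was measured through each probe set that the platform annotation assigns to it and to no other gene. This gave 20 probe sets for 9 of the 10 genes, out of 34958 single-gene probe sets among 45101. Bmp3 was not analysed here. The arrays held palate RNA of C57BL/6J mouse embryos in 4 groups: 5 mutants at E14.5 (E, embryonic day), 5 controls at E14.5, 3 mutants at E13.5 and 3 controls at E13.5. Mutants were Erk2 fl/fl; Wnt1-Cre and controls Erk2 fl/fl, so both carried the floxed alleles, and the mutants also carried the Cre transgene. Wnt1-Cre is active in neural crest, from which the palatal mesenchyme derives, while the epithelium, endothelium and muscle of the palate have other origins. A labelled batch 1 took E14.5 replicates 1 and 2 of each genotype, and batch 2 took the other three, while E13.5 has no batch label. The number of embryos behind an array is not labelled.

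BMP ligands are secreted dimers that bind type I and type II receptors. The activated type I receptor phosphorylates SMAD1, SMAD5 and SMAD9, which enter the nucleus with SMAD4 and switch on targets such as the Id genes. SMAD6, itself a target, blocks the pathway at the receptor and SMAD steps. In the palate, BMP signals pass between epithelium and mesenchyme and take part in shelf growth and, later, bone formation. ERK can phosphorylate the linker region of SMAD1 and so dampen its activity.

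The genes lie on several chromosomes of build GRCm38.p6 in the RefSeq annotation. Bmp2 is at chr2:133552159-133562896, Bmp7 at chr2:172868012-172940321 and Id1 at chr2:152736251-152737410. Bmp4 is at chr14:46383525-46390669 and Bmpr1a at chr14:34411061-34503336. Bmp5 is at chr9:75775365-75900316 and Smad6 at chr9:63953076-64022085. Id2 is at chr12:25093799-25096092 and Id3 at chr4:136143822-136145392.

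Promoters are shown for 3 of the direct BMP targets, since the activated SMAD complex is known to act at such sites. Each runs 5′ to 3′ on the strand of the gene, from 250 bases before to 50 bases after a RefSeq start in GRCm38.p6. For Smad6 that start lies inside the gene span given above, and the marked element lies inside that span too. Capitals mark the fixed letters of a SMAD motif, GGCGCC in Id2 and the bipartite SMAD element in Smad6, and Id3 holds no match. Id2 is read from chr12:25096043-25096342 (minus strand), Id3 from chr4:136143572-136143871 (plus strand) and Smad6 from chr9:64022010-64022309 (minus strand).
Id2: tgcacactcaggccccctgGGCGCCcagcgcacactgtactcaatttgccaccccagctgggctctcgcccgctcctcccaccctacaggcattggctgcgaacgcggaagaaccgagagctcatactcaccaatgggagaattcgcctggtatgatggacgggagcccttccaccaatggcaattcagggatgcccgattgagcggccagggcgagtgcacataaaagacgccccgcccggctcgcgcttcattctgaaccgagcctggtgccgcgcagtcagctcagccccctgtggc
Id3: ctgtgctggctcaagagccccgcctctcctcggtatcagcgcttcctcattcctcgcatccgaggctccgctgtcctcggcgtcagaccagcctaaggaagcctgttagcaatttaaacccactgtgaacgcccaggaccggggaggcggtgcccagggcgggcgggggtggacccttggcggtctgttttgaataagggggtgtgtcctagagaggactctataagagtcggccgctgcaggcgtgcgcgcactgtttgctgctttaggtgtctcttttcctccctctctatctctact
Smad6: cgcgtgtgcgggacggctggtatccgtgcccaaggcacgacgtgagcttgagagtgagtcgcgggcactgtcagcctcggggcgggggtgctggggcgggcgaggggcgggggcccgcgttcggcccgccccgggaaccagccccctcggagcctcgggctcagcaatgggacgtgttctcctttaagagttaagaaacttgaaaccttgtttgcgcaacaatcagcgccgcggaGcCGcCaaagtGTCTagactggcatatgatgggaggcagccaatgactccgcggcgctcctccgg
Promoter sequences were available for 6 of the 10 genes, namely Bmp4, Bmp5, Bmpr1a, Id2, Id3 and Smad6, and 3 motifs were searched on both strands. GGCGCC, a palindrome that SMAD1 and SMAD5 bind, occurred in 2 of these 6, at -231 to -226 from the start in Id2 and at -198 to -193 in Bmpr1a, and in 11.9% of 32851 RefSeq promoters of the same length. The bipartite SMAD element, GNCGNC and then, after a gap of 5 bases, GTCT, with N for any base, occurred in 1 of the 6, at -15 to -1 in Smad6, against 0.667% of all promoters. CCGGAAGT, a core bound by ETS factors, many of which are ERK substrates, occurred in none of the 6 and in 3.89% of all promoters. None of the matches overlapped a match of another motif. A match is only a run of letters within its window. The Bmpr1a window, chr14:34502497-34502796, lies wholly inside the gene span given above, so its GGCGCC is not upstream of that span.

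Values were deposited log2 expression values, and the median array value was 1.63 to 1.66 at E14.5 and 3.39 to 3.44 at E13.5, so genotypes were compared within a stage. Over the 11116 genes tested, correlations within a group were 0.993 to 0.997. The labelled tissue was checked against markers: the mesenchymal factor Prrx1 averaged 10.38 in mutants and 10.58 in controls at E14.5, while the epithelial keratin Krt14 averaged 9.34 in mutants and 8.72 in controls, so epithelial RNA was present as well. By sex-linked transcripts 3 of 5 mutants and 1 of 5 controls at E14.5 were female, as were all 6 arrays at E13.5. The level of the deleted gene was not analysed here. In RNA from mixed tissue, fewer cells of a type and less RNA per cell cannot be told apart.

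No difference between mutants and controls in the 9 measured BMP genes passed the test at either stage. At E14.5, 0 of 9 were called by limma at an adjusted p under 0.05, against 2.63% of the 11116 genes tested, and 1 of 9 (Bmp2) had an unadjusted p under 0.05, against 17.3% of all genes. At E13.5, 0 of 9 were called, against 0.099% of all genes, and 1 of 9 (Bmp5) had an unadjusted p under 0.05, against 9.54%. The median difference of the 9 genes, mutant minus control, was -0.036 at E14.5 and -0.019 at E13.5 on the log2 scale, and that of all genes was 0.015 and -0.044. The difference between the stages' genotype effects was called for 0 of 9 genes, against 0.117% of all genes, and 1 of 9 (Bmp5) passed unadjusted, against 10.4%. The number of arrays limits the precision.

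**Figure D1:**
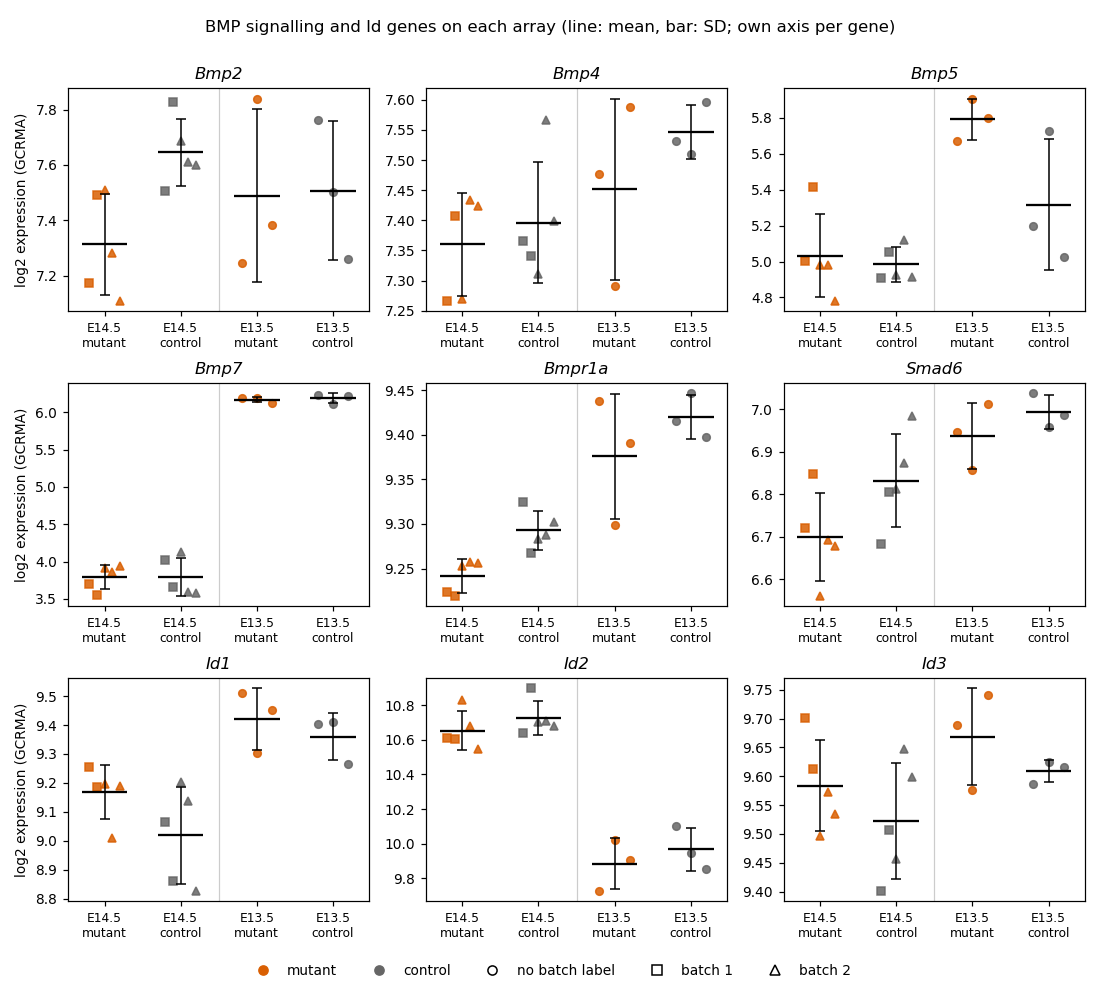
Log2 expression (vertical axis) of the 9 measured BMP genes on each of the 16 arrays, by stage and genotype, with E14.5 mutants and controls left of E13.5 mutants and controls. Points are arrays (squares batch 1, triangles batch 2, circles no batch label), thick lines are group means and bars are SD. At E14.5 the Bmpr1a arrays of mutants, at 9.22 to 9.26, all lie below those of controls, at 9.27 to 9.33.

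Among the ligands, Bmp2, which is known to drive osteoblast differentiation, had the lowest difference at E14.5. Bmp2 stood at 7.17, 7.49, 7.51, 7.28 and 7.11 in the E14.5 mutants, against 7.51, 7.83, 7.69, 7.61 and 7.60 in the E14.5 controls. The highest mutant and the lowest control were both at 7.51, and within each batch every mutant array lay below every control array. The difference was -0.33 ± 0.12 (SE, n = 5 each; 95% interval -0.59 to -0.07), a fold of 0.795, with an adjusted p of 0.176. It was -0.33 in batch 1 and -0.33 in batch 2. At E13.5 Bmp2 had 7.25, 7.84 and 7.38 in mutants and 7.76, 7.50 and 7.26 in controls, which overlapped fully, and the difference was -0.018 ± 0.16 (SE, n = 3 each; adjusted p 0.985). The E14.5 effect minus the E13.5 effect was -0.31 ± 0.20 (adjusted p 0.601).

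Bmp2 was set beside osteoblast markers, since they moved with genotype at E14.5. All 8 measured markers had a difference below 0 at E14.5 and 5 fell by the test, with a median difference of -0.61, and their mean level was 7.82 to 8.47 in mutants and 8.42 to 8.84 in controls. Dmp1, an osteocyte and late osteoblast matrix gene, averaged 7.28 in E14.5 mutants and 8.64 in E14.5 controls. At E13.5 all 8 markers were also below 0, with a median difference of -0.44. For Dmp1 the E13.5 difference was only -0.00042, with low means of 1.55 in mutants and 1.55 in controls. Dmp1 therefore shows no fall at E13.5, though it is included in the median and in the mean level. By limma 0 of the 8 markers were called at E13.5 and 5 had an unadjusted p under 0.05. Their E13.5 mean level was 5.41 to 5.87 in mutants and 6.07 to 6.31 in controls, while the Bmp2 groups overlapped fully at that stage. Over the 16 arrays, after the group and batch means were removed, Bmp2 followed the osteoblast mean at r = 0.61, the neural mean at r = 0.57 and the oral epithelium mean at r = -0.55. Oral epithelium markers had a difference above 0 at E14.5 for 19 of 19 genes, with 9 called and a median difference of 0.38, and their mean level was 7.29 to 7.58 in mutants against 6.92 to 7.07 in controls. The part of these markers in the Bmp2 values was not tested.

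Bmp5, a ligand known for its role in skeletal element shape in the mouse, differed most at E13.5. Its values were 5.67, 5.90 and 5.80 in E13.5 mutants and 5.20, 5.73 and 5.02 in E13.5 controls. Controls 1 and 3 lay below all mutants, while control 2 lay between the mutant arrays. The difference was 0.47 ± 0.16 (SE, n = 3 each; 95% interval 0.14 to 0.81), a fold of 1.39, with an adjusted p of 0.379. It was 0.68 without control 2 and 0.33 without control 3. A probe set with lower values for the same gene stood at 3.84, 4.20 and 3.83 in mutants against 3.43, 3.74 and 3.16 in controls, without overlap. Another was at 2.23, 2.61 and 2.53 in mutants against 2.36, 2.35 and 2.08 in controls, with overlap. Neither passed the filter on low values. Of all genes, 17.9% had E13.5 groups that did not overlap. At E14.5 Bmp5 had 5.00, 5.41, 4.98, 4.98 and 4.78 in mutants against 4.91, 5.05, 4.92, 5.12 and 4.91 in controls, with a difference of 0.048 ± 0.12 (n = 5 each; adjusted p 0.883), and mutant 2 was the highest array. The E14.5 effect minus the E13.5 effect was -0.43 ± 0.20 (adjusted p 0.480).

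Cartilage markers showed a similar order of arrays to Bmp5 at E13.5, and less so at E14.5. At E13.5 their mean level was 5.97 to 6.35 in mutants and 5.37 to 6.14 in controls, and 6.14 belonged to control 2, the control with the highest Bmp5. The cartilage mean is over 12 markers, of which Acan was not tested. Of the 11 tested, 9 were above 0 in the E13.5 difference, and the median was 0.56. By limma 0 of the 11 were called, though 6 had an unadjusted p under 0.05. At E14.5 the cartilage mean was 4.49 to 5.10 in mutants and 4.59 to 4.79 in controls, and 5.10 belonged to mutant 2, the E14.5 array with the highest Bmp5. E14.5 control 4, with the next highest Bmp5 at 5.12, had a cartilage mean of 4.68. The correlation of Bmp5 with the cartilage mean, over 16 arrays with group and batch means removed, was 0.91. It was the strongest of 72 correlations of the 9 genes with 8 marker lists. The part of cartilage in the Bmp5 difference was not tested.

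**Figure D2:**
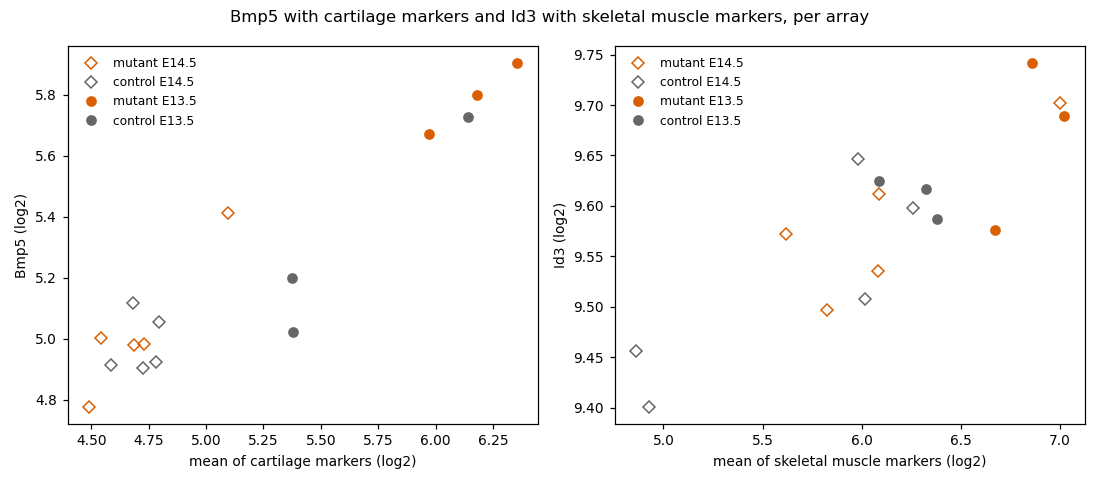
Log2 level of Bmp5 against the mean log2 level of 12 cartilage markers (left) and of Id3 against that of 19 skeletal muscle markers (right), 1 point per array, with E14.5 as open diamonds, E13.5 as filled circles, mutants in orange and controls in grey. Arrays with both a high Bmp5 and a high cartilage mean for their stage include E13.5 control 2 at 6.14 and E14.5 mutant 2 at 5.10.

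Bmp4 and Bmp7 were not called by genotype at either stage. Bmp4, which palatal mesenchyme is known to need for normal shelf growth, stood at 7.27, 7.41, 7.27, 7.43 and 7.42 in E14.5 mutants, against 7.37, 7.34, 7.31, 7.57 and 7.40 in E14.5 controls. At E13.5 it was at 7.48, 7.29 and 7.59 in mutants against 7.53, 7.51 and 7.60 in controls. Both pairs of groups overlapped, and the differences were -0.036 ± 0.063 at E14.5 (95% interval -0.17 to 0.10) and -0.095 ± 0.081 at E13.5 (95% interval -0.27 to 0.08). Bmp7, a ligand expressed in many epithelia and their mesenchyme, had 3.70, 3.56, 3.91, 3.86 and 3.94 in E14.5 mutants against 4.01, 3.66, 4.12, 3.59 and 3.58 in E14.5 controls. Its E13.5 values were 6.19, 6.19 and 6.13 in mutants against 6.23, 6.11 and 6.22 in controls. The E14.5 values overlapped, with a difference of -0.21 in batch 1 and 0.14 in batch 2 (95% interval over both -0.22 to 0.22), and the E13.5 difference was -0.019 ± 0.13. Bmp7 followed the skeletal muscle mean at r = -0.74 over the 16 arrays with group and batch means removed. E14.5 controls 1 and 3 had the lowest muscle means and also the highest E14.5 values of Bmp7. Without these 2 arrays the E14.5 difference of Bmp7 was 0.19 (limma adjusted p 0.161), but leaving out the highest Bmp7 controls raises it whatever the muscle content. The part of muscle in the Bmp7 values was not tested. A second Bmp7 probe set stood at 5.32, 5.32 and 5.16 in E13.5 mutants against 5.37, 5.45 and 5.70 in E13.5 controls. These groups did not overlap, which at E13.5 also held for 17.9% of all genes tested. The difference was -0.24 ± 0.13 (n = 3 each, limma adjusted p 0.621 over all probe sets), with 0.057 ± 0.098 at E14.5.

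Bmpr1a, which encodes the type I receptor ALK3, was the only measured BMP gene whose E14.5 groups did not overlap, and this held for 4.41% of all genes. Its values were 9.22, 9.22, 9.25, 9.26 and 9.26 in E14.5 mutants against 9.33, 9.27, 9.28, 9.29 and 9.30 in E14.5 controls. The gap was small beside the fit's error: the difference was -0.051 ± 0.035 (n = 5 each; 95% interval -0.13 to 0.02), a fold of 0.965, with an adjusted p of 0.492. E13.5 mutants had 9.44, 9.30 and 9.39 and E13.5 controls 9.42, 9.45 and 9.40, with overlap and a difference of -0.044 ± 0.046. The other 4 Bmpr1a probe sets that passed the filter differed by -0.055 to 0.021 at E14.5 and were not called, against 1.25% of the 19740 probe sets tested one by one. Bmp2 and Bmpr1a were also the 2 of 9 genes whose mutants were all lower within each E14.5 batch, against 5.71% of all genes whose groups separated in one direction in both batches.

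Smad6, the inhibitor, stood at 6.72, 6.85, 6.56, 6.69 and 6.68 in E14.5 mutants and 6.68, 6.80, 6.81, 6.87 and 6.98 in E14.5 controls. The groups overlapped, and the difference was 0.040 in batch 1 and -0.25 in batch 2. Over both batches it was -0.13 ± 0.062 (n = 5 each; 95% interval -0.26 to 0.00064), with an adjusted p of 0.291. E13.5 mutants had 6.94, 6.86 and 7.01 and E13.5 controls 7.04, 6.96 and 6.99, a difference of -0.057 ± 0.080. Smad6 followed the osteoblast mean at r = 0.59, the skeletal muscle mean at r = 0.56 and the neural mean at r = -0.60 over the 16 arrays with group and batch means removed. Without E14.5 controls 1 and 3, the arrays with the lowest muscle means, the E14.5 difference of Smad6 was -0.19 (limma adjusted p 0.157). Control 1 was the lowest Smad6 control at 6.68, and leaving it out lowers the difference whatever the muscle content. The part of muscle in the Smad6 values was not tested.

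The Id genes encode helix-loop-helix proteins that bind bHLH transcription factors and hold back differentiation, and they are widely used as readouts of BMP signalling. None was called at either stage. Id1 was at 9.26, 9.19, 9.20, 9.01 and 9.19 in E14.5 mutants against 9.07, 8.86, 9.20, 9.14 and 8.83 in E14.5 controls. Controls 2 and 5 lay below every mutant and the other controls lay within the range of the mutants. The difference was 0.15 ± 0.078 (n = 5 each; 95% interval -0.017 to 0.31; adjusted p 0.352), with 0.26 in batch 1 and 0.075 in batch 2. With sex added as a term it was 0.095, and without E14.5 controls 1 and 3 it was 0.22 (limma adjusted p 0.186). Control 3 was the highest Id1 control at 9.20, and leaving it out raises the difference whatever the muscle content. E13.5 mutants had 9.51, 9.30 and 9.45 and E13.5 controls 9.40, 9.41 and 9.27, which overlapped, with a difference of 0.061 ± 0.10.

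Id2 was read by 2 probe sets of high signal. The brighter one stood at 10.61, 10.60, 10.83, 10.68 and 10.54 in E14.5 mutants against 10.64, 10.90, 10.71, 10.71 and 10.68 in E14.5 controls, and at 9.73, 10.02 and 9.90 in E13.5 mutants against 10.10, 9.95 and 9.85 in E13.5 controls. Groups overlapped at both stages, with differences of -0.074 ± 0.074 at E14.5 (95% interval -0.23 to 0.08) and -0.084 ± 0.095 at E13.5 (95% interval -0.29 to 0.12). The other probe set differed by -0.018 ± 0.060 at E14.5 and -0.013 ± 0.077 at E13.5. Another, dimmer Id2 probe set did not pass the filter.

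Id3 was at 9.70, 9.61, 9.50, 9.57 and 9.54 in E14.5 mutants and 9.40, 9.51, 9.46, 9.65 and 9.60 in E14.5 controls. Its E13.5 values were 9.69, 9.58 and 9.74 in mutants against 9.59, 9.62 and 9.62 in controls. The groups overlapped at both stages. The differences were 0.062 ± 0.056 at E14.5 (95% interval -0.058 to 0.18), made of 0.20 in batch 1 and -0.032 in batch 2, and 0.059 ± 0.072 at E13.5. Skeletal muscle markers moved with Id3 over the arrays, at r = 0.78 with group and batch means removed. The mean level of the 19 muscle markers was 5.62 to 7.00 in mutants and 4.86 to 6.26 in controls at E14.5. Of these Myf6 was not tested. At E14.5, 18 of 18 tested markers were above 0 in the difference, with 0 called by limma and 5 at an unadjusted p under 0.05. Controls 1 and 3, which had the lowest muscle means at 4.93 and 4.86, also had the lowest Id3 values. Without these 2 arrays the E14.5 difference of Id3 was -0.0031, but leaving out the lowest Id3 controls lowers it whatever the muscle content. At E13.5, 18 of 18 tested muscle markers were also above 0, with a median of 0.65, 0 called by limma and 2 at an unadjusted p under 0.05. The E13.5 mean level of the 19 markers was 6.67 to 7.02 in mutants and 6.09 to 6.38 in controls. The part of muscle in the Id3 values was not tested.

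**Figure D3:**
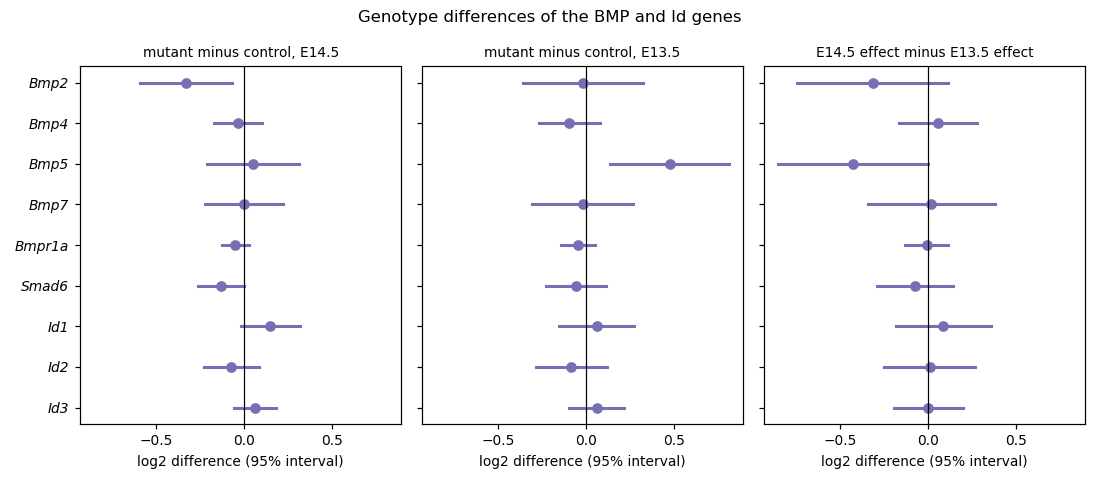
Log2 difference (horizontal axis) of each measured BMP gene for mutant minus control at E14.5 (left), mutant minus control at E13.5 (middle) and the E14.5 effect minus the E13.5 effect (right), with 95% intervals as bars. The interval of Bmp2 at E14.5, -0.59 to -0.07, and that of Bmp5 at E13.5, 0.14 to 0.81, leave out 0, and neither gene was called after adjustment over all genes.

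The 9 genes did not move as a block from array to array. Of the 36 pairs among them, 17 had a correlation above 0 over the 16 arrays with group and batch means removed, the median was -0.050, and the range was -0.76 to 0.85. These arrays share their probe sets and their normalization, so the values are descriptions. Bmp2 and Id2 had r = 0.85 (Spearman's rho 0.82), with 0.80 after leaving out the 2 arrays farthest from the median of Bmp2, 0.77 among the E14.5 arrays and 0.95 among the E13.5 arrays. That held for the brighter Id2 probe set only: Bmp2 and the other Id2 probe set had r = -0.12, and the 2 Id2 probe sets had r = -0.21 with each other. Id3 and Smad6 had r = 0.74 (rho 0.78), and 3.19% of genes were at least as strongly correlated with Id3. Bmp7 and Id3 had r = -0.76 (rho -0.80). Id1 stayed between -0.19 and 0.25 with every marker list.

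The genes most like each Id gene were taken as the 3 with the highest Pearson correlation over the 16 arrays after group and batch means were removed. For Id1 they were Cd320 (r = 0.93), Ldha (r = 0.93) and Sec11a (r = 0.93). For Id2, read by the brighter probe set, they were Araf (r = 0.94), Aspn (r = 0.92) and Trnt1 (r = 0.89). For Id3 they were Cfl2 (r = 0.94), Sytl2 (r = 0.94) and Rras (r = 0.91). These are the extremes among all other genes tested.

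The rest of the pathway was followed through 65 listed genes, of which 45 were tested. At E14.5, 1 rose and 2 fell in mutants, or 3 of 45, against 2.63% of all genes. The median difference was -0.00019 over the list and 0.015 over all genes. At E13.5, 0 of 45 were called by limma, 3 had an unadjusted p under 0.05, and 34 were below 0 with a median of -0.081, while 7612 of the 11116 genes tested were also below 0. No listed gene was called for the difference between the stages' effects.

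Hes1, a bHLH repressor best known as a Notch target, rose in E14.5 mutants. It stood at 6.29, 6.24, 6.10, 6.12 and 6.34 in mutants against 5.84, 5.74, 5.93, 5.97 and 5.81 in controls. All mutants lay above all controls, with a difference of 0.36 ± 0.056 (SE, n = 5 each; adjusted p 0.0051). The difference was smaller and not called when E14.5 batch 2 stood alone, at 0.28 with an adjusted p of 0.0843. At E13.5 Hes1 averaged 7.03 ± 0.042 in mutants and 7.04 ± 0.023 in controls (SD, n = 3 each).

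Sp7, the osteoblast transcription factor osterix, fell in E14.5 mutants. It stood at 6.22, 6.85, 6.27, 6.68 and 6.24 in mutants and at 7.03, 7.04, 7.24, 7.11 and 7.37 in controls, without overlap. The difference was -0.70 ± 0.14 (SE, n = 5 each; adjusted p 0.0199), and the call was lost without mutant 1 (adjusted p 0.0674) or mutant 5 (adjusted p 0.0587) and in batch 1 alone (difference -0.49, adjusted p 0.268). Sp7 is also one of the 8 osteoblast markers above. E13.5 mutants averaged 6.29 ± 0.12 and E13.5 controls 6.73 ± 0.34 (SD, n = 3 each).

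Bambi, a decoy receptor that lacks a kinase domain and is itself a BMP target, fell in E14.5 mutants. Its values were 7.19, 7.44, 7.12, 7.19 and 7.16 in mutants and 7.38, 7.51, 7.38, 7.52 and 7.57 in controls, and mutant 2 lay within the range of the controls. The difference was -0.25 ± 0.060 (SE, n = 5 each; adjusted p 0.0418), with -0.13 in batch 1 alone and -0.34 in batch 2 alone. The call held under 10 of 32 alternative settings and was lost when any single E13.5 array was left out, which changed the shared estimate of spread and not the difference itself.

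By role, the 6 tested SMAD transducers were not called at either stage, with 5 above 0 at E14.5 and 0 above 0 at E13.5. Of all 11116 genes, 6226 were above 0 at E14.5 and 7612 were below 0 at E13.5. Smad7, the other inhibitory SMAD, had the smallest p among them at E14.5, with a difference of 0.099 ± 0.050 (adjusted p 0.332). Of the 7 other receptors none was called, and Bmpr1b, a type I receptor, came nearest at 0.24 ± 0.061 (adjusted p 0.0528), at the low levels of 2.27 to 2.51 in E14.5 mutants and 2.04 to 2.25 in E14.5 controls. Bambi was the only call among the 16 antagonists and modifiers, and Chrdl1, a secreted BMP antagonist, had -0.45 ± 0.12 (adjusted p 0.0716). The 3 other ligands were not called, and Gdf10 had -0.25 ± 0.13 (adjusted p 0.346), close to 0 in batch 1 and -0.42 in batch 2. Hes1 and Sp7 were the calls among the 13 other targets and responders.

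**Figure D4:**
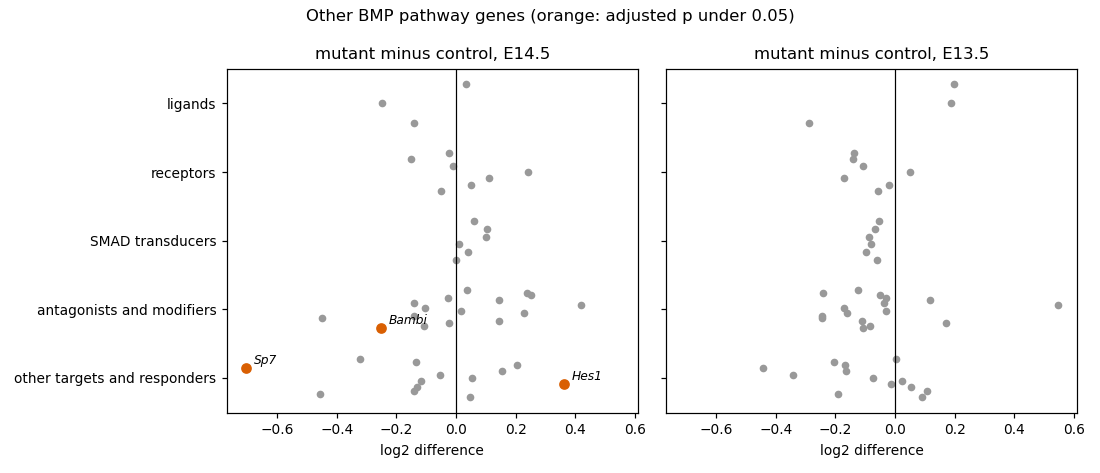
Log2 differences, mutant minus control (horizontal axis), of the 45 tested genes of the wider BMP pathway at E14.5 (left) and E13.5 (right), 1 point per gene with roles down the page, and with genes called at an adjusted p under 0.05 larger, in orange and named. At E14.5 the named genes are Hes1 at 0.36, Sp7 at -0.70 and Bambi at -0.25, and at E13.5 no gene is named.

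Between stages, 6 of the 9 genes changed from E13.5 in each genotype, 1 higher and 5 lower at E14.5, against 85.3% of all genes called in mutants (13.4% higher, 71.9% lower) and 86.5% in controls (11.6% higher, 74.9% lower). The median difference of all genes, E14.5 minus E13.5, was -0.56 in mutants and -0.63 in controls, and the scale of the arrays differed by stage, so stage and array run cannot be told apart and a share of calls near or under the background is not a result about these genes. When arrays were centred on their medians, the differences of all measured genes but Bmp7 were above 0, and after a further quantile normalization 3 of 9 were called in mutants and 6 of 9 in controls. Changes are therefore set beside genes of like level, within 0.5 log2 of the gene's mean.

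Bmp7 moved most. It averaged 3.79 ± 0.16 in E14.5 mutants against 6.17 ± 0.035 in E13.5 mutants (SD, n = 5 and n = 3), a difference of -2.39, where the 1485 genes of like level had a median of -1.14. In controls the difference was -2.41 against a median of -1.27. After a further quantile normalization it was -1.46 in mutants and -1.38 in controls. On an array the probe set ranked at the 67.4th percentile of all probe sets in E14.5 mutants and the 76.9th in E13.5 mutants. The second Bmp7 probe set ranked at 68.2 in E14.5 mutants and 68.6 in E13.5 mutants, while its log2 difference was -1.32. In controls it ranked at 68.0 at E14.5 and 70.3 at E13.5, with a log2 difference of -1.62.

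Id2 was the only gene higher at E14.5, and only by one probe set. The brighter probe set averaged 10.65 ± 0.11 in E14.5 mutants against 9.88 ± 0.15 in E13.5 mutants (SD, n = 5 and n = 3), a difference of 0.77 where genes of like level had a median of -0.077. The difference was 0.76 in controls. The other Id2 probe set of high signal differed by -0.31 in mutants and -0.30 in controls, so the 2 readings of Id2 disagree in direction. The mean over the Id2 probe sets differed by -0.42 in mutants and -0.42 in controls. That mean also takes in the dimmer probe set that did not pass the filter. The dimmer probe set averaged 1.92 at E14.5 and 3.66 at E13.5 in mutants, and 2.10 at E14.5 and 3.84 at E13.5 in controls.

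Bmp5 was lower at E14.5 as deposited, with -0.75 in mutants and -0.32 in controls, but genes of like level had lower medians of -0.89 in mutants and -0.998 in controls. The difference of Bmp5 between the genotypes is the interaction given above. Id1 had -0.25 in mutants and -0.34 in controls, beside medians of -0.12 in mutants and -0.15 in controls. Smad6, at -0.24 in mutants and -0.16 in controls, was called in both, but genes of like level had lower medians of -0.39 in mutants and -0.47 in controls. Bmpr1a, at -0.14 in mutants and -0.13 in controls, was also called in both, near the medians of -0.12 in mutants and -0.15 in controls. In controls the calls of Bmp5 (adjusted p 0.0460) and Smad6 (adjusted p 0.0446) lay near the threshold. Bmp2, Bmp4 and Id3 were not called in either genotype, with -0.17 in mutants and 0.14 in controls for Bmp2, -0.097 and -0.16 for Bmp4, and -0.085 and -0.087 for Id3.

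**Figure D5:**
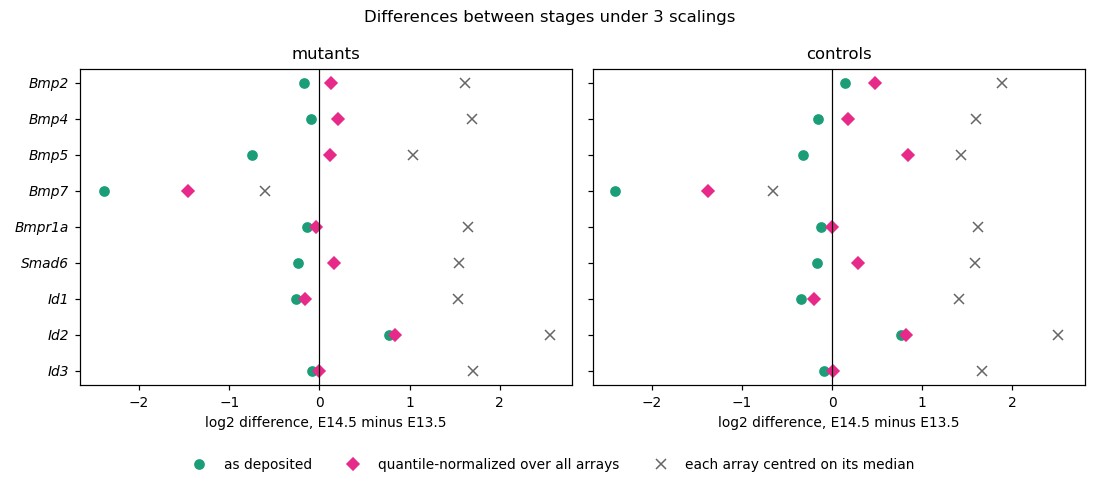
Log2 difference, E14.5 minus E13.5 (horizontal axis), of each measured BMP gene in mutants (left) and controls (right) as deposited, after a further quantile normalization, and with each array centred on its median. Bmp7 lies below 0 under all 3 scalings, and Bmp5 lies at -0.75 in mutants as deposited but above 0 under both others.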

How the data were processed

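The deposited values were log2 expression values that the authors made with GCRMA, a method for one-colour Affymetrix arrays, per the submitters' processing notes. The sources used here give neither its version nor whether the stages were normalized together. The tissue is named as palate mesenchyme in the labels' protocols and as primary palatal mesenchymal cells in the series description.

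For each gene the probe set of highest mean over the 16 arrays was kept, which gave 18194 genes. Genes with at least 3 arrays at a log2 value of 4 or more were tested, which left 11116. Of the 20 probe sets of the BMP genes 15 passed, covering all 9 measured genes. One fit with limma 3.58.1 (lmFit, eBayes) in R 4.3.3 held the 4 groups and the batch within E14.5. P-values were adjusted by the Benjamini-Hochberg method over all genes, with calls under 0.05. The labels do not say that the arrays came from separate litters, so p-values reflect only the variation among these arrays, which may be technical. On simulated data with 11116 genes, the fit recovered 64.2% of 1.25-fold and 95.5% of 1.5-fold changes at E14.5, and 43.3% and 76.1% at E13.5. In each simulated comparison 67 genes were changed 1.25-fold, 67 were changed 1.5-fold and 66 were changed 2-fold. The adjustment of p depends on how many genes change, which is not known for the data. These shares are therefore not the power for the BMP genes.

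The genes and lists were chosen with earlier results of these data known. All members were named. Other pathway genes were named if called, and otherwise as examples with the smallest p in their role. Figures were drawn with matplotlib 3.10.9 in Python 3.11.15.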

Additional observations from a re-analysis of the deposited data

Results flagged for a closer look

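Among 40 groups of 5 E14.5 arrays (20 probe sets in each genotype), 3 held an array whose gap to its nearest neighbour was large for the range of the group. Chance gives such a gap in about 1 of 20 groups. Id1 in E14.5 mutant 4 stood at 9.01, with the next mutant at 9.19. Id2, by its brighter probe set, stood at 10.90 in E14.5 control 2, with the next control at 10.71, and Bmp2 was also highest in that array at 7.83. A Bmp7 probe set below the filter on low values stood at 1.55 in E14.5 mutant 4, with the next mutant at 1.74.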

How the results depend on the processing

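No measured BMP gene was called between genotypes at either stage, or for the difference between the stages' effects, under any of the 32 alternatives (31 for that difference), and leaving out single arrays gave 0 calls throughout. Bmp2 at E14.5 ranged from -0.39 to -0.28 (adjusted p 0.118 to 0.433) and Bmp5 at E13.5 from 0.33 to 0.75 (adjusted p 0.101 to 0.998), with Bmp5 not tested where probe sets were averaged or the filter was at log2 6. Uncalled values near 0 changed sign under some alternatives, among them Bmp7 at E14.5 under 10 of 32 and Id3 at E14.5 under 2 of 32. With the replicate block within stage, 0 members were called between genotypes, 6 between stages in mutants and 6 in controls, and Bmp2 at E14.5 had an adjusted p of 0.180. Same-numbered mutant and control arrays had correlations of -0.45 to 0.03 at E14.5 and -0.17 to 0.17 at E13.5. Mutant and control arrays of different number had -0.32 to 0.34 at E14.5 and -0.13 to 0.21 at E13.5. The replicate numbers thus showed no sign of pairing, though so few arrays cannot exclude it. The calls lost among the wider pathway were for Bambi (22 of 32), Sp7 (8 of 32) and Hes1 (1 of 32). Calls were gained for Chrdl1 (3 of 32) and Bmpr1b (2 of 29), and these genes were put through the alternatives after seeing the data. Over all genes the count called at E14.5 was 292, with 184 without a filter, 168 with every probe set tested, 130 after quantile normalization, 155 with array weights, 104 with the replicate block, 143 with a sex term, 128 in batch 2 alone, 31 in batch 1 alone and 64 with E14.5 arrays alone. It was 371 with no batch term, 318 with an intensity trend and 318 with an actin 5′ minus 3′ term, and leaving out single arrays gave 105 (without E14.5 mutant 1) to 262. At E13.5 it was 11, with 85 under array weights, 25 after quantile normalization, 20 with centred arrays, 20 with no batch term, 6 with the replicate block, 6 with the actin term and 3 beside E14.5 batch 1 alone, and leaving out single arrays gave 6 to 35 (without E13.5 mutant 2).

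The stage differences of single members, also recomputed after seeing the data, depended on scaling. After quantile normalization 3 of 9 members were called in mutants rather than 6, while 6 were called in controls, among them Bmp2 (0.47), Bmp5 (0.84), Id2 (0.82) and Smad6 (0.29) as higher. Leaving out single arrays gave 5 to 7 in mutants and 4 to 7 in controls. With each array centred on its median, signs reversed in mutants for Bmp2 (1.62), Bmp4 (1.69), Bmp5 (1.04), Bmpr1a (1.65), Id1 (1.53), Id3 (1.70) and Smad6 (1.55), and in controls for Bmp4 (1.59), Bmp5 (1.43), Bmpr1a (1.62), Id1 (1.41), Id3 (1.66) and Smad6 (1.59). After quantile normalization they turned positive in mutants for Bmp2 (0.13), Bmp4 (0.20), Bmp5 (0.12) and Smad6 (0.16), and in controls for Bmp4 (0.18), Bmp5 (0.84), Bmpr1a (0.0020), Id3 (0.014) and Smad6 (0.29), where Bmp2 in mutants and Bmp4 and Id3 in controls were not called in either form. The mean over probe sets reversed Id2, to -0.42 in mutants and -0.42 in controls, and that mean takes in the dimmer Id2 probe set below the filter. The centring itself subtracts array medians that differed between stages; the cause of the other reversals was not tested. Bmp7 stayed below 0 under all 3 scalings. The number of arrays limits the precision, and Bmp7 averaged under the log2 floor of 4 in both genotypes at E14.5.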
